A study of Mus musculus with 10 samples.

Results

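Mincle, encoded by *Clec4e*, and its signaling partners were followed in hematopoietic stem cells (HSCs) with and without *Cited2*, which encodes a transcriptional co-regulator. The set held 9 of the 26146 genes in the count table and was chosen by name, around *Clec4e*, because *Clec4e* was already known to differ between the genotypes in these libraries. It comprised 4 C-type lectin receptors (*Clec4e*, *Clec4d*, *Clec7a* and *Clec12a*), the receptor partner chain *Fcer1g*, the kinase *Syk*, and the adaptor complex *Card9*, *Bcl10* and *Malt1*. Because that contrast entered the choice, the genotype differences of these 9 genes are given as values with their errors and without a p-value, and whether a member was called is stated as a description only.

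Bone marrow HSCs were sorted as Lin-Sca-1+c-Kit+ (LSK) CD48-CD150+ cells from C57BL/6J mice aged 8 to 12 weeks and profiled by bulk RNA-seq. The *Cited2* CTL group held 5 libraries from *Cited2* fl/fl mice without Cre, labelled wildtype. The *Cited2* CKO group held 5 libraries from *Cited2* fl/fl;*Vav-iCre* mice, and the design gives 1 library per mouse. Both groups carried the floxed allele on both copies. In CKO mice the *Vav* regulatory elements drive the iCre recombinase across the hematopoietic system from shortly after HSCs emerge, so that deletion precedes birth and is not limited to HSCs.

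Libraries held 3058690 to 4548795 counts in CTL (median 3984482) and 3500215 to 4315029 in CKO (median 4218483). These are totals of the deposited counts, and the paper reports far more sequenced reads per sample. Depth below refers to the deposited counts. Levels are given as CPM, counts scaled to a common library size with the summed counts of the tested genes and a TMM factor. A pair of CKO libraries stood apart. The library labelled CKO 3 held 508 counts of *Cited2* (120.1 CPM, within the CTL range of 101.3 to 222 CPM), whereas the other 4 CKO libraries held 3.803 to 8.30 CPM. CKO 2 held *Xist*, the RNA of the inactive X chromosome, at 1307 CPM and the Y-linked *Ddx3y* at 119 CPM, which no other library held together at such levels, and these values go against 1 mouse for that library. Values without CKO 3, or without both, are given beside the main results for *Clec4e* and wherever they moved a value by more than 1.5 times. Both groups mixed the sexes by these transcripts. CTL 2, CTL 4 and CKO 3 held *Xist* at 1316, 1250 and 1299 CPM and *Ddx3y* at 0.236 CPM or less. In the others except CKO 2, *Xist* was at 19.7 CPM or less and *Ddx3y* at 188.9 to 279 CPM. Defining HSC genes were present in both groups, with *Slamf1* (CD150) at a mean of 106 CPM in CTL and 119.7 CPM in CKO, *Kit* at 580 and 500.1 CPM, and *Procr* at 104.7 and 88.9 CPM.

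C-type lectin receptors are surface proteins of myeloid cells that bind sugars, lipids and products of damaged cells. Mincle binds the mycobacterial cord factor trehalose dimycolate and a ribonucleoprotein released by dying cells, and it has no signaling motif of its own. It associates with the Fc receptor gamma chain, whose immunoreceptor tyrosine-based activation motif (ITAM) is phosphorylated and recruits SYK. SYK then acts through protein kinase C delta on CARD9, which assembles with BCL10 and MALT1 and leads to NF-kB activation and cytokine transcription. The pathway is best known in macrophages, dendritic cells and neutrophils, where Mincle is itself inducible.

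All 4 receptor genes lie on mouse chromosome 6 (GRCm38, GENCODE M21). *Clec4e* (ENSMUSG00000030142.10) spans 123281789 to 123289870 on the minus strand and *Clec4d* spans 123262111 to 123275265 on the plus strand, with 6.5 kb between them. *Clec12a* (129342691 to 129365303, plus strand) and *Clec7a* (129461591 to 129472779, minus strand) form a second pair 96.3 kb apart, and 6052.8 kb separate *Clec4e* from *Clec12a*. None of the 4 overlaps another annotated gene.

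The stretches of 250 bases before the RefSeq transcription starts of the 4 receptor genes (GRCm38.p6) are shown, since these genes share a gene family and a chromosome. Each reads 5′ to 3′ toward its gene, and that of *Clec12a* lies inside the longer GENCODE model of the gene. Capitals mark matches to TGTGGT, the RUNX core, and to TTGCNNAA, a C/EBP-type sequence, searched on both strands.
*Clec4e*, chr6:123289872-123290121, minus strand: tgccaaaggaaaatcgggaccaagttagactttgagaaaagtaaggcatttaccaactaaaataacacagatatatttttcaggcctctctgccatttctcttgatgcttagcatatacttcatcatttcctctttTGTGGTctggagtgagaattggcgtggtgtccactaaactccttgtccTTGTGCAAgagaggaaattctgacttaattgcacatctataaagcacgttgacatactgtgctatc
*Clec4d*, chr6:123261857-123262106, plus strand: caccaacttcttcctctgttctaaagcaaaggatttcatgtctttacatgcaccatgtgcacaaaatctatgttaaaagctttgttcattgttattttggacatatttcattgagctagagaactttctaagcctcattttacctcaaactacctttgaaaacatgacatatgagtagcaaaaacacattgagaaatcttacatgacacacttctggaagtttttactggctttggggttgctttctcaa
*Clec7a*, chr6:129472780-129473029, minus strand: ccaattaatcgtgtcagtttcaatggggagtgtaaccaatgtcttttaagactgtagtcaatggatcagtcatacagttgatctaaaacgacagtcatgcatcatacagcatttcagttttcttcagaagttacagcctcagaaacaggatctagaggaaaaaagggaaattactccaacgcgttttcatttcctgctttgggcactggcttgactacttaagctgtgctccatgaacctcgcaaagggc
*Clec12a*, chr6:129349994-129350243, plus strand: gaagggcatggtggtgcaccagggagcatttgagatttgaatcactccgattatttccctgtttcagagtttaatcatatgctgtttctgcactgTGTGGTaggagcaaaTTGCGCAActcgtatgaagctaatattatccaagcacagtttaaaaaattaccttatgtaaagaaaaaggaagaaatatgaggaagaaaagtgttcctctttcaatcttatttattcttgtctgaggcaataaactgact

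These windows were AT-rich, with a GC content of 39.6% for *Clec4e*, 35.2% for *Clec4d*, 42.0% for *Clec7a* and 37.2% for *Clec12a*, and with 0 to 5 CpG dinucleotides each. The window of *Bcl10* (62.4% GC, 19 CpG) and the first window of *Syk* (71.6% GC, 27 CpG) were GC-rich. A second *Syk* window, at another start site, had 47.6% GC and 2 CpG. The *Clec4e* window held the RUNX letters at position -114 and the C/EBP letters at -66, counted from the start site. *Clec12a* also held both, at -155 and -140, and *Clec4d* and *Clec7a* held neither. The RUNX letters occur in 14% and the C/EBP letters in 9.56% of all 32851 promoter windows of this length. A search for ACGTG, the core of the hypoxia response element, gave 1 match in *Clec4e* (-22) and 1 in *Bcl10* (-68), against 16.6% of all windows. These letters are part of the E-box CACGTG, which none of the receptor windows held. AGGAAGT, a PU.1-type sequence, was found in *Card9* (-14, 7.69% of all windows), and neither GCGGGAA (E2F, 3.82%) nor an NF-kB-type motif (1.41%) was found in the receptor windows. A match is a description of the letters and not of a bound site.

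*Clec4e* was the 1 receptor gene of the 4 whose values did not overlap between the genotypes. Its CPM in the CTL libraries, in the order of their numbers, was 52.2, 49.0, 55.6, 79.9 and 54.5. In the CKO libraries it was 148, 143, 100.2, 139.9 and 153. Every CKO library lay above every CTL library, and CKO 3, the library with *Cited2* counts, was the lowest of the CKO group. The mean was 58.2 ± 12.4 CPM (SD, n = 5) in CTL and 137 ± 21.1 CPM in CKO, a 2.35-fold ratio, which was 2.51 without CKO 3 and 2.52 without CKO 2 and CKO 3. The log2 fold change in the fit over all genes was 1.23 (SE 0.15, 95% interval 0.94 to 1.52). Raw counts of *Clec4e* ran from 156 to 665 per library. In bulk libraries, more cells with the transcript and more transcript per cell cannot be told apart.

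Among 14165 tested genes, 32 were called in either direction (0.226%), of which 17 were higher in CKO (0.12%). A call needed a Benjamini-Hochberg adjusted p under 0.05 in edgeR's quasi-likelihood test and a fold change above 20%. Of the 9 members 8 passed the filter on low counts, and 1 of these, *Clec4e*, was called. The same contrast chose the set, so nothing is read from that count. CPM values did not overlap between the genotypes for 2 members, against 3.33% of all tested genes. *Clec4e* was higher in every CKO library (1.35% of all tested genes were) and *Bcl10* lower. The log2 fold change was above 0 for 3 members and below 0 for 5.

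**Figure D1:**
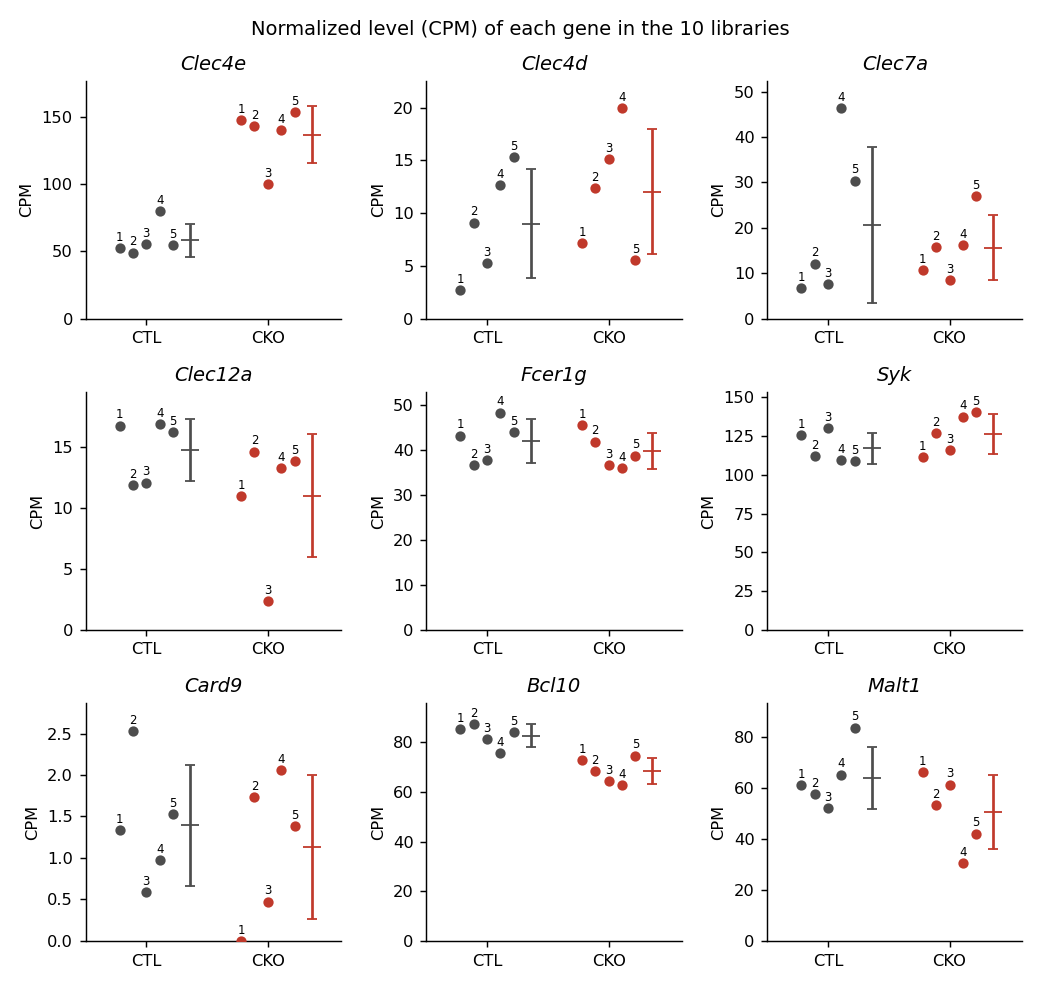
CPM of each of the 9 genes in the 5 CTL and 5 CKO libraries, 1 point per library, with the vertical axis starting at 0 in every panel and lines at the group means. *Clec4e* runs from 49.0 to 79.9 CPM in CTL and from 100.2 to 153 CPM in CKO, whereas the points of *Clec4d*, *Clec7a*, *Clec12a*, *Fcer1g*, *Syk*, *Card9* and *Malt1* overlap.

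The neighbour of *Clec4e*, *Clec4d*, encodes MCL (Dectin-3), which binds the same mycobacterial glycolipid and can pair with Mincle. It was 2.68, 9.09, 5.29, 12.7 and 15.3 CPM in the CTL libraries and 7.13, 12.4, 15.1, 19.99 and 5.53 CPM in the CKO libraries. The groups overlapped over most of their range, and only CKO 4 exceeded the highest CTL library. The means were 9.01 ± 5.18 and 12.03 ± 5.90 CPM (SD, n = 5 each), with a log2 fold change of 0.40 (SE 0.46). This value rested on single libraries, being 0.14 without CKO 4, 0.16 without CTL 1, 0.25 without CTL 3 and 0.67 without CTL 5, and it was 0.25 without CKO 2 and CKO 3. Counts of 8 to 70 per library lay behind these values.

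*Clec7a* encodes Dectin-1, the receptor for fungal beta-glucan, which recruits SYK through a motif in its own tail. CTL libraries held 6.69, 12.1, 7.64, 46.3 and 30.4 CPM, and CKO libraries held 10.7, 15.8, 8.51, 16.2 and 27.0 CPM. CTL 4 and CTL 5 were higher than every CKO library, and the remaining CTL libraries lay among or below the CKO values. The means were 20.6 ± 17.3 and 15.6 ± 7.14 CPM, and the log2 fold change of -0.41 (SE 0.49) became 0.12 when CTL 4 was left out. It was -0.23 without CTL 5, -0.26 without CKO 3, -0.21 without CKO 2 and CKO 3, -0.64 without CTL 1, -0.63 without CTL 3 and -0.72 without CKO 5, so its size and sign depended on single libraries.

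*Clec12a* encodes an inhibitory receptor for uric acid crystals that recruits phosphatases. It was 16.7, 11.9, 12.1, 16.8 and 16.2 CPM in CTL and 10.9, 14.6, 2.36, 13.2 and 13.8 CPM in CKO. The single low value was CKO 3, with 10 counts, and the others overlapped. The means were 14.7 ± 2.54 and 11.0 ± 5.01 CPM. The log2 fold change was -0.42 (SE 0.38), -0.16 without CKO 3 and -0.22 without CKO 2 and CKO 3.

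The genes downstream of the receptors are dispersed in the genome (GRCm38), with *Fcer1g* on chromosome 1 (171229572 to 171234365), *Syk* on chromosome 13 (52583173 to 52648792), *Card9* on chromosome 2 (26352176 to 26360918), *Bcl10* on chromosome 3 (145922804 to 145934356) and *Malt1* on chromosome 18 (65430938 to 65479067). *Card9* shares 87 exonic bases with the antisense transcript *Gm13562*, and the other members overlap no annotated gene.

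The partner chain and the kinase differed by less than the spread between libraries. *Fcer1g* encodes the ITAM-bearing gamma chain on which Mincle, MCL and several Fc receptors depend. It was 43.1, 36.6, 37.6, 48.3 and 44.0 CPM in CTL and 45.4, 41.8, 36.6, 35.9 and 38.7 CPM in CKO. The CKO values spanned most of the CTL range, with means of 41.9 ± 4.81 and 39.7 ± 3.94 CPM and a log2 fold change of -0.08 (SE 0.13), which was -0.14 to -0.03 with single libraries left out. *Syk* was 125, 112, 130.2, 109 and 109 CPM in CTL and 111, 127, 116, 138 and 140.3 CPM in CKO. CKO 4 and CKO 5 exceeded the highest CTL library and the rest overlapped, with means of 117 ± 9.93 and 126 ± 12.8 CPM and a log2 fold change of 0.11 (SE 0.09), which was 0.06 without CKO 5 and 0.22 with GC content and gene length modelled.

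The 3 genes of the adaptor complex were at very different levels. *Card9*, the adaptor that links SYK to BCL10 in myeloid cells, was 1.34, 2.53, 0.588, 0.975 and 1.53 CPM in CTL and 0, 1.73, 0.473, 2.06 and 1.38 CPM in CKO. This was 0 to 10 counts per library, under the filter on low counts, and a difference was not detectable at this depth. CKO 1, the library without a count, can hold up to 3 counts by counting error alone.

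*Bcl10*, which forms the filaments that carry the signal onward, was 85.3, 87.4, 81.4, 75.6 and 84.0 CPM in CTL and 72.7, 68.5, 64.3, 62.6 and 74.7 CPM in CKO. Every CKO library lay below every CTL library, although CKO 5 and CTL 4 lay close together (74.7 and 75.6 CPM). The means were 82.7 ± 4.56 and 68.6 ± 5.20 CPM, with a log2 fold change of -0.27 (SE 0.09). The gene was not called. *Malt1*, the paracaspase of the complex, was 61.2, 57.6, 52.3, 65.3 and 83.8 CPM in CTL and 66.3, 53.4, 61.5, 30.6 and 42.2 CPM in CKO. CKO 4 and CKO 5 were below all CTL libraries and the other 3 lay among them, with means of 64.1 ± 12.03 and 50.8 ± 14.5 CPM and a log2 fold change of -0.33 (SE 0.19), which was -0.21 without CKO 4 and -0.22 without CTL 5.

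**Figure D2:**
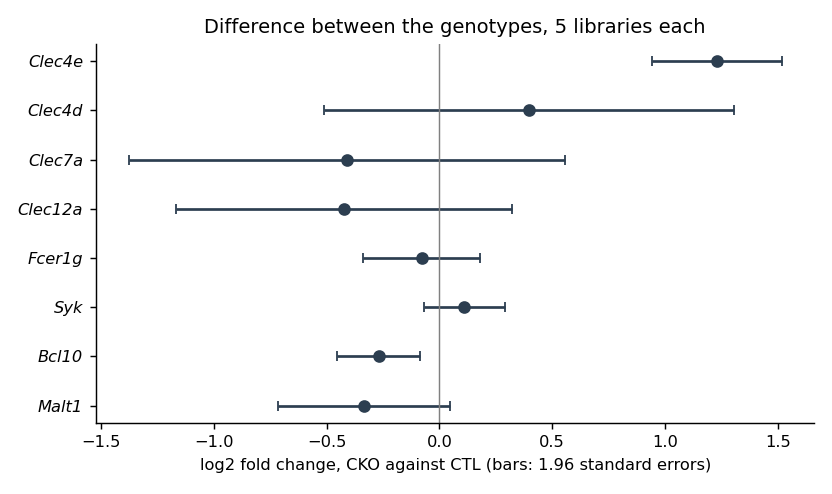
Log2 fold change in CKO relative to CTL from the fit over all genes for the 8 tested members, with bars for the 95% interval. The point of *Clec4e* lies at 1.23, and those of the other tested members lie between -0.42 (*Clec12a*) and 0.40 (*Clec4d*).

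On a scale per length (CPM per kilobase of deposited gene length), the order of the members changed between the genotypes at the position of *Clec4e*. The deposited lengths of *Clec4e* (2519 bases) and *Fcer1g* (658) differed unevenly from their annotated exon bases (4965 and 874). For *Bcl10* these were 1760 and 4564 bases, and for *Malt1* 5008 and 18040. Orders, percentiles and ratios between genes were computed with the deposited lengths only and depend on them. In CTL, *Fcer1g* was highest at 63.7 ± 7.30 (SD, n = 5), followed by *Bcl10* at 47.0 ± 2.59. *Clec4e* at 23.1 ± 4.92 and *Syk* at 22.2 ± 1.88 came next and their ranges overlapped, which placed *Clec4e* at percentile 60.0 of the tested genes. *Malt1* followed at 12.8 ± 2.40 CPM per kilobase, and its range overlapped that of *Clec7a* (9.06 ± 7.58). *Clec7a*, *Clec4d* (6.74 ± 3.87) and *Clec12a* (6.63 ± 1.14) overlapped one another. *Card9* was lowest at 0.864 ± 0.453 CPM per kilobase, with its range below that of *Clec12a*.

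In CKO the *Clec4e* level was 54.3 ± 8.37 CPM per kilobase, at percentile 83.5, and its range overlapped that of *Fcer1g* (60.3 ± 5.98) and that of *Bcl10* (38.96 ± 2.96). Without CKO 3 it was 58.0 ± 2.31 CPM per kilobase (55.6 to 60.8, n = 4), which no longer overlapped *Bcl10*. *Syk* was at 23.98 ± 2.43 CPM per kilobase, and the levels of *Malt1*, *Clec4d*, *Clec7a*, *Clec12a* and *Card9* fell from 10.1 to 0.701 CPM per kilobase with each range overlapping the next. Without CKO 3, *Clec12a* (4.92 to 6.57 CPM per kilobase) no longer overlapped *Card9* (0 to 1.28).

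**Figure D3:**
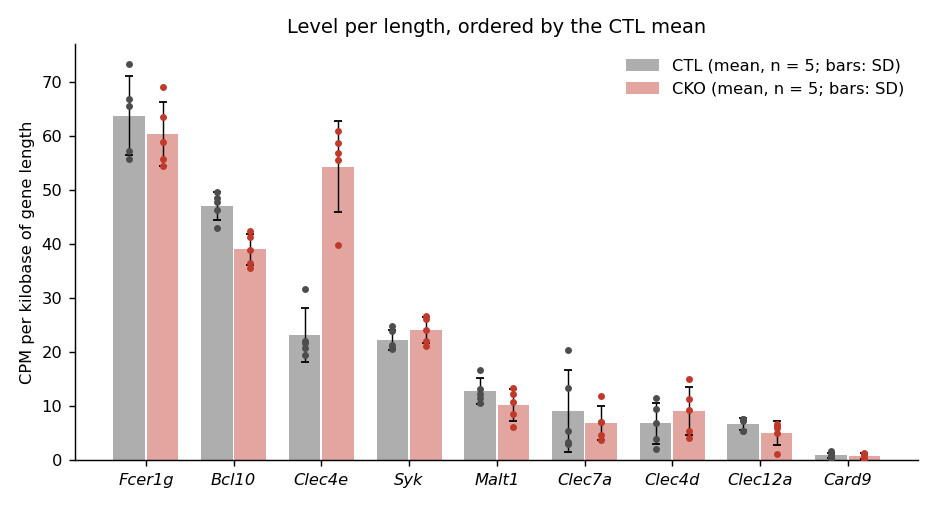
CPM per kilobase of gene length for the 9 genes, ordered by the CTL mean, with bars at the mean of 5 libraries, error bars of 1 SD and 1 point per library. With the deposited lengths, *Clec4e* moves from beside *Syk* in CTL (23.1 against 22.2) to beside *Fcer1g* in CKO (54.3 against 60.3).

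Set against its partner chain within each library, the level of *Clec4e* per kilobase was 0.316 to 0.433 of that of *Fcer1g* in CTL (mean 0.362 ± 0.0483) and 0.715 to 1.03 in CKO (mean 0.902 ± 0.13). CKO 3 had the lowest ratio of its group, and the CKO mean without it was 0.948 ± 0.0901 (n = 4). *Clec4e* made up 52.9 ± 10.1% of the summed level per kilobase of the 4 receptors in CTL (40.2 to 63.4%) and 72.4 ± 4.78% in CKO (66.5 to 79.7%). The changed order, this ratio and this share all contain the *Clec4e* difference around which the set was chosen. They restate it and are no independent support. The ratio of *Bcl10* to *Malt1* per kilobase was 3.77 ± 0.68 in CTL and 4.12 ± 1.25 in CKO, and these overlapped.

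Other lectin genes beside *Clec4e* were at low levels. Within 250 kb, *Clec4a2*, an ITIM-bearing receptor gene, was 4.66 ± 1.95 CPM in CTL and 8.85 ± 3.55 CPM in CKO, with a log2 fold change of 0.93 and overlapping values. On the far side of *Clec4e*, the vomeronasal receptor gene *Vmn2r19* was 3.26 ± 2.97 and 6.31 ± 5.14 CPM with a log2 fold change of 0.95. *Clec4n* (Dectin-2), which lies next to *Clec4d*, held 0 to 10 counts per library and was not tested, and *Clec4a4*, *Clec4b1*, *Clec4b2* and *Vmn2r20* held at most 12 counts.

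Across the 10 libraries, the genes whose log2 CPM was most like that of *Clec4e*, among 14112 compared, were *Sva* (Pearson r = 0.966), *Arhgap15* (0.952), *Gm16548* (0.947), *Sla* (0.946) and *Selp* (0.941). Their Spearman rho was 0.794 to 0.879, and r was 0.94 to 0.968 without CTL 4 and CKO 3. The genotype difference is part of these coefficients. After subtraction of each genotype's mean the closest were *Nfkbie*, which encodes an NF-kB inhibitor (r = 0.918), *Ifngr1*, a chain of the interferon gamma receptor (0.909), *St3gal2* (0.902), *Plcl1* (0.896) and *Dennd1a* (0.896). Without CTL 4 and CKO 3, the libraries in which *Clec4e* departed most from its group, those coefficients were 0.654 to 0.79. Among the members, *Clec12a* had r = 0.712 with *Clec4e* on this scale and 0.733 without those libraries. *Clec7a* had 0.696 and 0.436, *Fcer1g* had 0.635 and 0.422, and *Clec4d*, *Syk*, *Bcl10* and *Malt1* lay between -0.137 and 0.0704. These coefficients describe 10 libraries of differing depth and carry no test.

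To see how the wider pathway stood, 5 lists of genes other than the members were followed. They held 121 tested genes, of which 1 was called (0.826%, against 0.226% of all tested genes) and 65 had a log2 fold change above 0 (51% of all tested genes had). An unadjusted p under 0.05 was reached by 21 of the 121, against 12.9% of all tested genes. DESeq2 called 3 genes of these lists, and it called 338 of 13881 genes over the whole table (2.43%).

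The list of other C-type lectin genes, mostly receptors, held 28 genes of the count table. Of these 13 were tested and 0 were called by edgeR or by DESeq2, with 3 at an unadjusted p under 0.05. The log2 fold change was above 0 for 11 of the 13, with a median of 0.47 against 0.0065 over all tested genes. *Clec4a3*, of the *Clec4a* receptor family, was 4.08 ± 1.61 CPM in CTL and 10.9 ± 7.06 CPM in CKO (log2 fold change 1.42, SE 0.49, edgeR adjusted p = 0.248). *Clec1a*, a receptor for fungal melanin, was 64.1 ± 22.7 and 42.7 ± 11.4 CPM (-0.59, SE 0.24, edgeR adjusted p = 0.322). *Clec2d*, a ligand of a natural killer cell receptor, was 15.3 ± 2.04 and 24.7 ± 12.1 CPM (0.69, SE 0.30, edgeR adjusted p = 0.352), and its log2 fold change was 0.40 without CKO 5. *Clec1a* differed from the other named receptors in sign, and none passed the test.

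The list of further receptors and chains around FcR gamma and DAP12 held 26 genes, of which 14 were tested, 0 were called by edgeR and 1 was called by DESeq2, with 1 at an unadjusted p under 0.05. That gene was *Fcer1a*, the IgE-binding chain of the high-affinity IgE receptor, which also needs the gamma chain at the surface. Its CPM was 10.03, 4.29, 5.88, 3.41 and 0 in CTL and 53.5, 33.9, 15.4, 28.8 and 25.1 in CKO. The groups did not overlap, and CKO 3 was the lowest of the CKO libraries. The log2 fold change was 2.78 (SE 0.58), with an adjusted p of 0.0729 in edgeR and 0.0217 in DESeq2, and it was 2.95 without CKO 3 (edgeR adjusted p = 0.0522). Values of *Csf2rb2*, a cytokine receptor beta chain (log2 fold change 0.53, edgeR adjusted p = 0.394), and *Tyrobp*, which encodes DAP12 (0.52, edgeR adjusted p = 0.474), overlapped between the genotypes. The median over the list was 0.33, with 12 of 14 above 0.

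Genes acting around SYK, of which 37 of 39 were tested, gave 0 calls in edgeR and 0 in DESeq2, and 2 were at an unadjusted p under 0.05. Their median log2 fold change was -0.10, and 13 of 37 were above 0. *Cblb*, an E3 ubiquitin ligase that restrains SYK-coupled receptors, was 52.5 ± 15.9 CPM in CTL and 76.8 ± 12.5 CPM in CKO (0.54, SE 0.19, edgeR adjusted p = 0.263). The adaptor *Sh3bp2* had a log2 fold change of -0.37 (edgeR adjusted p = 0.32) and the phospholipase *Plcg1* of -0.24 (0.402), and with GC content and gene length modelled these were -0.19 and -0.12.

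The list of CARD9-BCL10-MALT1 regulators and the NF-kB arm was tested in full, with 38 genes. edgeR and DESeq2 each called 0, and 10 were at an unadjusted p under 0.05 (12.9% of all tested genes were). For 2 of the 38, every CKO library lay below every CTL library, as it did for 280 of all 14165 tested genes. The median log2 fold change was -0.06, and 16 of 38 were above 0. *Tnfaip3*, a ubiquitin-editing inhibitor of NF-kB and itself a MALT1 substrate, was 48.2 ± 15.1 CPM in CTL and 73.7 ± 9.65 CPM in CKO (0.61, SE 0.19, edgeR adjusted p = 0.218). Its binding partner *Tnip1* was 54.95 ± 3.74 and 41.2 ± 7.49 CPM, with all CKO libraries below all CTL libraries (-0.42, SE 0.14, edgeR adjusted p = 0.246). CKO 3 was the lowest, at 28.6 CPM, and the *Tnip1* log2 fold change was -0.31 without it, -0.27 without CKO 2 and CKO 3, and -0.22 with GC content and gene length modelled. *Tab2*, an adaptor of the kinase TAK1, was 61.7 ± 11.2 and 80.7 ± 11.6 CPM (0.39, SE 0.14, edgeR adjusted p = 0.275). The other gene without overlap was the NF-kB subunit gene *Rela*, at 143.5 ± 6.16 and 124.6 ± 9.45 CPM (-0.20, SE 0.08, edgeR adjusted p = 0.29). Its log2 fold change was 0.03 with GC content and gene length modelled.

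The last list, drawn up by function, held 34 genes of inflammatory responses in myeloid cells. Whether the pathway turns on any of them in HSCs was not tested. Of these genes 19 were tested, edgeR called 1 higher in CKO and DESeq2 called 2, and 5 were at an unadjusted p under 0.05. The called gene was *Casp1*, the protease that matures interleukin-1 beta. Its CPM was 107.7, 133, 136, 144 and 141 in CTL and 192, 194, 185, 171 and 178 in CKO, so that the groups did not overlap. The log2 fold change was 0.47 (SE 0.08), with an adjusted p of 0.036 in edgeR and 7.39e-05 in DESeq2. The edgeR adjusted p was 0.267 when GC content and gene length were modelled. With single libraries left out it was 0.0479 (without CKO 4) to 0.123 (without CKO 2), and it passed the threshold only without CKO 4.

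*Cxcl10*, a chemokine induced by interferon, was 12.2 ± 6.48 CPM in CTL and 28.6 ± 9.74 CPM in CKO (log2 fold change 1.23, SE 0.35), with an adjusted p of 0.162 in edgeR and 0.0365 in DESeq2. *Il12a*, a subunit gene of interleukin-12, was 52.1 ± 9.11 and 73.3 ± 16.8 CPM (0.49, SE 0.16, edgeR adjusted p = 0.233). The core cytokine genes *Tnf*, at 2.79 and 3.31 CPM, and *Il1b*, at 4.09 and 2.898 CPM, were near the lower limit of what was tested.

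**Figure D4:**
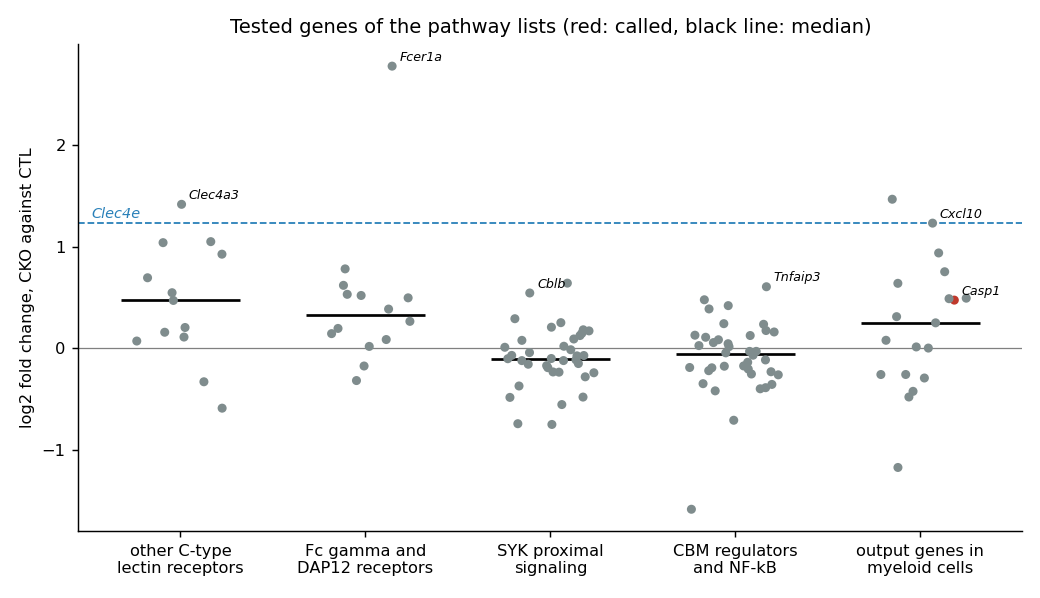
Log2 fold change in CKO relative to CTL of the 121 tested genes of the 5 pathway lists, 1 point per gene, with black lines at the list medians (0.47, 0.33, -0.10, -0.06 and 0.25). The 1 called gene, *Casp1*, is drawn in red, and *Fcer1a* is the highest point at 2.78.

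*Clec4e* is known from myeloid cells, and markers of the other cell types that a sorted fraction could hold were therefore summed per library. The 26 neutrophil and monocyte markers summed to 583 to 1177 CPM in CTL and 651 to 895 CPM in CKO, with CTL 5 the highest of all. *Ly6g*, a defining neutrophil marker, had 0 counts in every library, but other neutrophil genes were detected in both genotypes. Among them were *S100a8* (39.1 CPM in CTL and 36.8 in CKO), *S100a9* (33.3 and 30.2 CPM) and *Ngp* (37.8 and 32.6 CPM). The sums of the 26 markers overlapped between the genotypes. Of these markers 20 were tested and 0 were called by edgeR or DESeq2, 10 had a log2 fold change above 0, and 4 were at an unadjusted p under 0.05. The granule genes *Mpo* (48.1 CPM in CTL and 31.3 in CKO) and *Elane* (14.5 and 5.24 CPM) were lower on average in CKO, whereas *Itgam* (17.8 and 34.6 CPM), *Ms4a3* (8.78 and 20.2 CPM), *Ccr2* (5.02 and 9.89 CPM), *Mrc1* (5.04 and 10.4 CPM) and *Cd68* (17.7 and 26.8 CPM) were higher on average.

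The 9 mast cell and basophil markers summed to 42.9 to 65.9 CPM in CTL and 76.4 to 154 CPM in CKO, without overlap, and CKO 3 was again the lowest CKO library, with 103.4 to 154 CPM in the others. *Fcer1a*, which is also on this list, and *Cpa3* (mean 36.6 and 72.0 CPM) made up most of the sum. The granule protease gene *Cpa3* was thus well detected, whereas the other granule protease genes on the list were low. They held at most 1 count of *Tpsb2*, 8 of *Cma1*, 8 of *Gzmb*, 9 of *Prss34* and 29 of *Mcpt8* in any library. Of the 9 genes 4 were tested, edgeR called 0 and DESeq2 called 2, and 3 had a log2 fold change above 0. *Hdc* went the other way (4.00 CPM in CTL and 2.07 in CKO, log2 fold change -0.97). Among the untested genes *Gzmb* and *Mcpt8* were lower on average in CKO, and *Prss34*, *Tpsb2* and *Cma1* were higher. Multipotent progenitor markers, 9 genes, summed to 575 to 714 CPM in CTL and 600.4 to 705 CPM in CKO, which overlapped. *Cd34* (390.5 and 380.4 CPM) and *Flt3* (123 and 96.0 CPM) made up most of that sum. The median log2 fold change of the 9 genes was 0.75, with 7 above 0 and 4 at an unadjusted p under 0.05, and *Dntt* (1.195), *Ccr9* (0.93), *Cd244a* (0.75) and *Satb1* (0.75) were not called. Of the 9, 1 was called higher in CKO, *Cd48* (21.6 and 49.0 CPM, log2 fold change 1.19), whose protein was gated against in the sort. The 19 HSC markers summed to 3864 to 4191 CPM in CTL and 3483 to 3967 CPM in CKO. Their median log2 fold change was -0.14, with 7 of 19 above 0. Of the 19, edgeR called 0 and DESeq2 called 1, and 6 were at an unadjusted p under 0.05 (12.9% of all tested genes were). For 1 of them every CKO library lay below every CTL library. The part of these differences in the *Clec4e* result was not tested.

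Marker sums of megakaryocytes (677 to 907 and 701 to 865 CPM), erythroid cells (559 to 663 and 549.8 to 684 CPM), B, T and NK cells (140.4 to 174 and 161 to 194 CPM) and dendritic cells (316 to 493 and 248 to 448 CPM) overlapped between the genotypes.

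**Figure D5:**
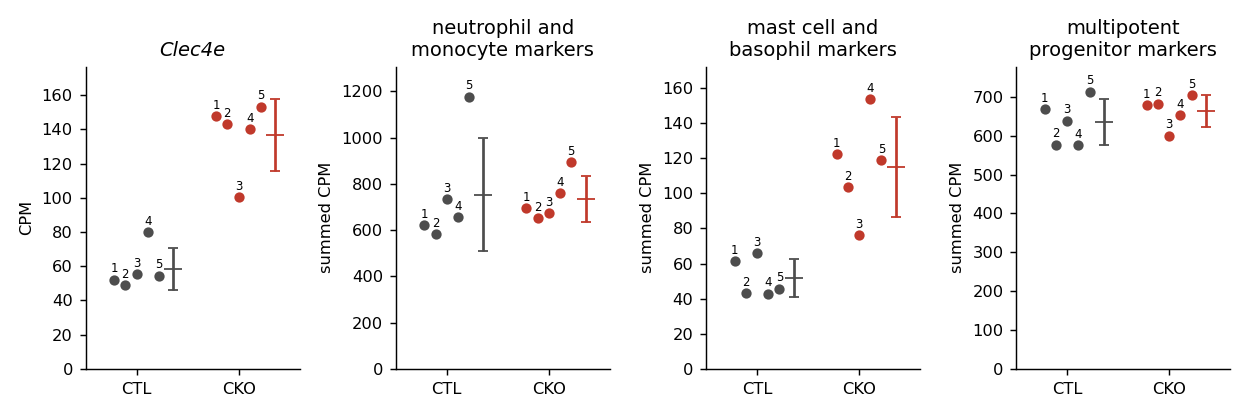
*Clec4e* CPM and the summed CPM of marker lists of other cell types in the 5 CTL and 5 CKO libraries, 1 point per library, with lines at the group means. The neutrophil and monocyte sum overlaps between the genotypes (583 to 1177 and 651 to 895 CPM), whereas the mast cell and basophil sum does not (42.9 to 65.9 and 76.4 to 154 CPM).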

How the data were processed

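HSC RNA was sequenced in 10 libraries, 5 per genotype, by design 1 per mouse. According to the study's methods the authors aligned reads to GRCm38 with HISAT2 (2.1.0) and counted them per gene with Rsubread (2.0.1), and the deposited table gives raw counts and gene lengths by symbol. Positions were taken by symbol from GENCODE M21. The annotation used for counting and strand and duplicate handling are not given in the sources used here. In any gene the highest number of counts per base of length was 2.19 to 3.22 per library, and in *Clec4e* it was at most 0.264.

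Counts were fitted by genotype with edgeR (4.0.16, R 4.3.3; filterByExpr, TMM, quasi-likelihood F-test) on all 10 libraries without a covariate. Calls needed an adjusted p under 0.05 and a fold change above 20%. DESeq2 (1.42.0) was an alternative, as were other filters and a GC content and length correction. Further alternatives were a replicate block, log2 CPM of *Xist* as a covariate and leaving out libraries. The edgeR script was tested on simulated data. Gene lengths as deposited were used for levels per kilobase, and promoter sequences came from RefSeq (no entry for *Malt1*). P-values measure the spread between mice of one series. Replicates within a genotype differed beyond counting error in every pair.

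The members, lists and tests were chosen with earlier results of these data known. Genes named were the members, *Cited2*, every called gene and the 3 smallest p of each pathway list, the 5 genes most like *Clec4e* on each scale, and the nearest genes to *Clec4e* and *Clec4d*. One progenitor marker is not reported here and was left out of its list. The other list and marker genes given with values were chosen after their values were seen.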

Additional observations from a re-analysis of the deposited data

Results flagged for a closer look

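Within each genotype, a library was singled out where its gap to the nearest other library, divided by the range of the group, exceeded Dixon's critical value for 5 samples (0.71). Of 50 groups examined 6 did so, and chance gives about 1 in 20.

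*Clec4e* was singled out in both genotypes. CTL 4 held 79.9 CPM against 49.0 to 55.6 CPM in the other CTL libraries. CKO 3 held 100.2 CPM against 139.9 to 153 CPM in the other CKO libraries. CKO 3 was also singled out for *Cited2*, at 120.1 CPM against 3.803 to 8.30 CPM. Whether the *Clec4e* level of that library is tied to its *Cited2* counts was not tested.

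The other values were *Tnip1* in CTL 5 at 61.5 CPM (others 52.6 to 54.7 CPM), *Casp1* in CTL 1 at 107.7 CPM (others 133 to 144 CPM) and *Il12a* in CKO 4 at 102.9 CPM (others 60.5 to 68.0 CPM).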

How the results depend on the processing

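*Clec4e*, around which the set was chosen from this contrast, was called under every alternative run, which is no independent support. It had a log2 fold change of 1.14 (GC content and length correction) to 1.37 (without CTL 4), and 1.17 to 1.37 over the leave-one-out fits. With the replicate block it was 1.24, and with log2 CPM of *Xist* as a covariate 1.23. *Bcl10* stayed below 0 in all 19 settings (-0.31 to -0.23). The count of genes higher in CKO, 17, became 146 with DESeq2, 6 with the GC content and length correction, 9 with that correction and the replicate block, 5 at an adjusted p under 0.01, and 5 (without CKO 2) to 27 (without CKO 3) with single libraries left out. The count lower, 15, became 192, 3, 3 and 3 in those settings, 9 with the replicate block alone, 9 without CKO 2 and CKO 3 (an alternative chosen after seeing the data), and 3 (without CTL 2, CTL 4 or CKO 2) to 18 (without CKO 4). The 1 called pathway gene, *Casp1*, became 3 with DESeq2 (*Casp1*, *Cxcl10* and *Fcer1a*) and 0 in edgeR with the replicate block, with the GC content and length correction, with both, and without CKO 2 and CKO 3 (21, 12, 12 and 18 genes at an unadjusted p under 0.05, 21 before). It was 0 to 1 with single libraries left out: *Casp1* was called only without CKO 4, *Fcer1a* only without CTL 5, and otherwise none. The cause of these changes was not tested. *Cited2* itself was not called in the main fit, with a log2 fold change of -2.51 (edgeR adjusted p = 0.328, DESeq2 adjusted p = 0.164). Without CKO 3 its log2 fold change was -4.92 (edgeR adjusted p = 1.82e-06). Of 452 recomputed single-gene values, 434 stayed on their side of the threshold or, where no test was given, moved by less than 1 SD between libraries, 5 passed the threshold newly and 13 no longer passed it. Among the members the sign of *Clec7a* turned, to 0.12 without CTL 4.

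The replicate numbers did not pair the libraries: the correlation of same-numbered deviations from the genotype means was -0.0947 to 0.208, above 0.1 for 2 of 5 numbers, and 1 CTL and 2 CKO libraries correlated best with their own number. With a common biological coefficient of variation of 25.3%, low genes such as *Card9* could not be compared at this depth.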
